A study of Sparus aurata with 6 samples.

Results

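The 200 brightest sequences on arrays of gilthead seabream (*Sparus aurata*) skin were described across fish fed a phytogenic diet and fish fed a control diet. The fish were juveniles of about 155 g, and skin was taken at day 65 of feeding. The phytogenic group received the control diet with 0.5% of a microencapsulated additive (carvacrol, thymol and the essential oil of garlic), and the control group received the same diet without it. RNA of 4 fish was pooled, and the 3 pools of a diet were hybridized to a one-color array each (a single dye, Cy3, reports what a probe has bound), so no value belongs to a single fish. The labels do not say which of the 3 tanks of a diet gave which pool, and all fish had been treated against parasites with hydrogen peroxide and formaldehyde before the trial.

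The members were chosen by their brightness itself. For each array, the log2 processed signal was averaged over repeat spots of each probe and set relative to the 75th percentile of the probes, and a sequence took the median over its probes. A sequence could be chosen if it had 2 or more probes, each with at least 50% of its spots well above background on all 6 arrays, and the 200 with the highest mean over the 6 arrays were taken. Of the 15156 sequences on the array, 6780 had 2 or more probes and 4288 could be chosen. The members were measured by 600 of the 28793 probes and by 1039 of the 43803 spots outside the controls (2.37%). Of the members, 7 had 2 probes, 186 had 3 and 7 had 4. All levels below are log2 values relative to the 75th percentile of the array, so that 1 unit is a 2-fold difference, and since they chose the members they are a description with no test.

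The skin of a fish is a living mucosal barrier, in which epidermal cells and mucus-secreting cells lie over a dermis rich in collagen that carries the scales. In such tissue, transcripts of the ribosome, of translation factors, of keratins and collagens, of the cytoskeleton and of mitochondrial respiration are commonly among the most abundant. The array files name sequences by contig and clone only, and 0 of the 15156 names were found among the 32006 genes of the reference table (assembly fSpaAur1.1). Members are therefore called by their names in the files and have no gene or role here, and neither the tissue nor any cell type could be checked against its markers. The brightness of a spot depends on the probe as well as on the amount of transcript, so the members are called the brightest sequences and not the most abundant transcripts.

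The 6 arrays differed in overall signal before scaling, and the extremes were both control pools. The 75th percentile stood at 10.30, 10.42 and 10.48 (log2) in phytogenic pools 1, 2 and 3, against 9.92, 10.62 and 10.03 in control pools 1, 2 and 3. Between 82.6% and 86.3% of the spots were well above background in the phytogenic pools, against 68.6%, 85.9% and 77.1% in control pools 1, 2 and 3. No spot was saturated. Control pools 1 and 2 lay on slides from another run of consecutive numbers than control pool 3 and the phytogenic pools. Values within the run that holds both diets are given beside the results. The number of arrays limits the precision, and p-values set the difference between the diets against the spread between arrays of the same diet. That spread holds differences between pools and between slides together. All arrays were scanned on 1 day, control pools 1, 2 and 3 first and the phytogenic pools after them. Diet and scan order therefore cannot be told apart.

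The levels of the members ran from 4.28 to 7.92, with a median of 5.49, while the median of all sequences that could be chosen was -0.40. Of the 200 members, 43 lay at 7 or above, 35 between 6 and 7, 57 between 5 and 6, and 65 below 5. The first was Seabream_2006-01-03-CL1722Contig1, with 7.80, 7.84 and 7.78 in phytogenic pools 1, 2 and 3 and 8.23, 7.81 and 8.06 in control pools 1, 2 and 3. Control pools 1 and 3 lay above all phytogenic pools, control pool 2 lay among them, and the diets overlapped. Contig1496 followed, with 7.80, 7.75 and 7.69 in the phytogenic pools and 8.19, 7.42 and 8.05 in the control pools. Here control pool 2 was the lowest of all 6 pools and the other control pools were the highest. The brightest clone, cDN11P0001N22.F.ab1, stood at rank 9 with 7.29, 7.48 and 7.55 in the phytogenic pools and 7.49, 7.36 and 7.57 in the control pools, and varied less over the arrays than the first 2.

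The threshold fell where levels were dense. Seabream_2006-01-03-CL3649Contig1 (rank 199, 4.2886) and Contig2192 (rank 200, 4.2830) were the last inside, and cDN06P0006D22.F.ab1 (4.2821) and Contig431 (4.2814) were the first outside. The last member and the first sequence outside thus differed by less than any spread between pools given below. The 200 next in brightness are used as the nearest neighbors of the members.

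**Figure D1:**
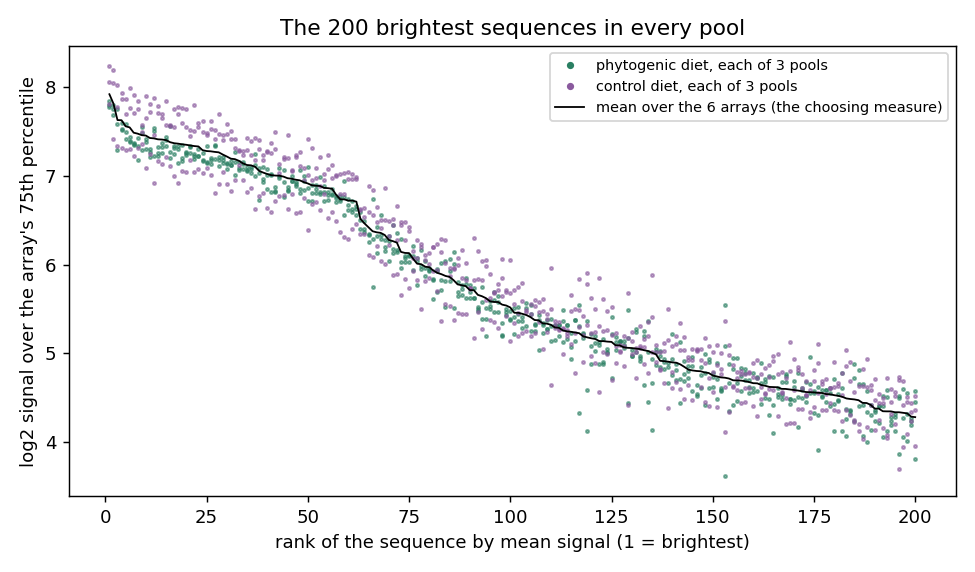
Level of each of the 200 members (y axis, log2 signal over the 75th percentile of the array) against its rank (x axis), with 1 point for each phytogenic pool and each control pool and a line for the mean over the 6 arrays. The line lies between 6.91 and 7.92 over the first 50 ranks and runs down to 4.28 at rank 200, and in 165 members the control points spread more widely than the phytogenic points.

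Sequences named in the "Contig" series were common among the members. Names of the "Contig" series made up 135 of the 200 (67.5%), against 33.4% of the sequences that could be chosen and 43% of the 200 next in brightness. Names of the "Seabream" cluster series made up 35 (17.5%), and single clones made up 27 (13.5%), against 26.5% and 36.4% of the sequences that could be chosen. The 27 clones came from 12 of the 14 clone series on the array. The "Contig" series gave 41 of the 50 brightest members, 36 of the next 50, 25 of the third 50 and 33 of the last 50. Members were also spotted more often, since 348 of their 600 probes (58%) had more than 1 spot, against 25.5% of the 12289 probes of the other sequences that could be chosen.

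The members held most of the signal of an array. Summed over spots, they took 59.99%, 59.87% and 59.86% of the processed signal in phytogenic pools 1, 2 and 3, against 63.62%, 57.40% and 62.13% in control pools 1, 2 and 3. With each probe counted once, the shares were 56.3%, 56.4% and 56.4% in the phytogenic pools and 60.3%, 54.1% and 59.1% in the control pools. The 10 brightest members alone took between 7.25% and 7.45% in the phytogenic pools and between 7.09% and 8.33% in the control pools. The 200 next in brightness took between 8.06% and 8.74% in the phytogenic pools and between 8.25% and 9.01% in the control pools. The share of the members differed little among the phytogenic pools, while the control pools lay on both sides of them.

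Nearly all of these values came from a separate reading of the slide. In the extended dynamic range mode named in the file headers, a slide is scanned at normal and at low detector gain, and the brightest spots are taken from the low-gain scan and scaled up. This held for 94.9%, 97.8% and 98.8% of the spots of the members in phytogenic pools 1, 2 and 3, and for 94.2%, 98.7% and 95.3% in control pools 1, 2 and 3. Over all spots of an array, between 2.91% and 3.58% were read in this way. On every array, all spots of 143 members came from the low-gain scan, and each of the other 57 had spots from the normal scan on some array. The 57 began at rank 85. Their within-diet SD had a median of 0.21 against 0.225 for the 143, and their median difference between the diets was -0.05 against -0.11. The brightest spot of an array reached between 60.8% and 72.3% of the saturation value in the phytogenic pools and between 56.0% and 65.8% in the control pools.

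The membership varied little between the arrays. When each array was ranked alone, its own 200 brightest held 185, 192 and 193 of the members in phytogenic pools 1, 2 and 3, and 191, 191 and 194 in control pools 1, 2 and 3. Over the 200 members, the lowest Spearman correlation between any 2 arrays was 0.928. These are values across sequences that share probes and arrays, and sequences are no independent replicates. Another background correction kept 198 members, quantile normalization 199, the mean over probes in place of the median 193, and leaving out 1 array between 197 and 199. Under all 10 settings tried, 188 sequences were among the 200 brightest.

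In the members as in the other sets, the probes of a sequence spanned more in brightness than in the difference between the diets. In brightness, the probes of a member spanned 0.299 (median over members, with quartiles of 0.12 and 0.753). This compares with 0.555 for the 200 next in brightness and 0.671 for the other sequences that could be chosen. In 33 members the span passed 1, in 8 it passed 2, and the widest was 5.91. Taking the lowest probe of each sequence in place of the median kept 185 members among the 200 brightest, and taking the highest kept 183. In the difference between the diets, the probes of a member spanned 0.118 (median), where the median difference of the members itself was -0.10. The span was 0.123 for the 200 next in brightness and 0.158 for the others that could be chosen. The least alike pair of probes of a member correlated with a median r of 0.851 over the 6 arrays. This r was 0.813 for the 200 next in brightness and 0.548 for the others. It was below 0 in 17 members, in 26 of the 200 next in brightness and in 919 of the 4088 others. Repeat spots of a probe differed by a median of 0.0763 for the members and 0.0716 for the other sequences that could be chosen.

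The probes disagreed most in a few members. For Seabream_2006-01-03-CL1066Contig1, 1 of 3 probes differed between the diets by 0.30 and another by -0.26. For Seabream_2006-01-03-CL2416Contig1, the probes ran between -0.09 and 0.42. Over all members, every probe was below 0 in 117, every probe above 0 in 16, and the signs were mixed in 67. The probes had the same sign in 66.5% of the members. This share was 73% for the 200 next in brightness and 64.2% for the others that could be chosen.

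The members moved together from pool to pool, above all among the control pools. Their median was 5.38, 5.50 and 5.46 in phytogenic pools 1, 2 and 3, and 5.71, 5.35 and 5.68 in control pools 1, 2 and 3. This gives 5.45 ± 0.06 for the phytogenic diet and 5.58 ± 0.20 for the control diet (SD, n = 3 each). The phytogenic pools lay between the lowest and the highest control pool, so the diets overlapped. Without scaling, the order of the control pools was the opposite, with medians of 15.69, 15.93 and 15.94 in phytogenic pools 1, 2 and 3 and 15.63, 15.97 and 15.71 in control pools 1, 2 and 3.

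Control pools 1 and 3 both stood above control pool 2 in 183 members (91.5%), against 46.6% of the sequences that could be chosen. All 3 phytogenic pools lay between the extremes of the control pools in 117 members (58.5%), against 29.6%. The lowest of the 6 values was that of phytogenic pool 1 in 51 members (25.5%, against 23.8% of the sequences that could be chosen) and that of control pool 2 in 127 (63.5%, against 27%). The highest was that of control pool 1 in 141 (70.5%, against 28.6%). In a principal component analysis over the 6 arrays, component 1 took up 64.2% of the variance of the members. Over all sequences tested it took up 54.9%. For the members, its weights were -0.34, 0.01 and -0.10 in phytogenic pools 1, 2 and 3. They were 0.69, -0.56 and 0.30 in control pools 1, 2 and 3, which set control pools 1 and 3 against control pool 2.

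On the scaled values, RNA added to every sample in a fixed amount was also lowest in control pool 2, at the brightness of the members and below it. These spike-ins (E1A controls, 10 probes with 32 spots each) include 3 whose brightness lies within that of the members. Their mean on the same scale was 6.09, 6.19 and 6.11 in phytogenic pools 1, 2 and 3, and 6.33, 5.74 and 6.44 in control pools 1, 2 and 3, or 6.13 ± 0.05 and 6.17 ± 0.38 (SD, n = 3 each). The dimmer spike-in E1A_r60_a22 had 2.02 in control pool 2 and between 2.49 and 2.79 in the other pools. The dimmest, E1A_r60_3 and E1A_r60_a104, were lowest in phytogenic pool 2. Without scaling, the mean of the 3 was 16.40, 16.61 and 16.60 in phytogenic pools 1, 2 and 3. It was 16.24, 16.36 and 16.47 in control pools 1, 2 and 3, so control pool 1 was the lowest. Over the 6 arrays the members correlated with the scaled mean of the 3 with a median r of 0.757, against 0.0657 for the 4088 other sequences that could be chosen. All of the scaled values share the array and its 75th percentile, and how far each of these bears on the pattern of the members was not tested. Relative to the 3 spike-ins, the median of the members was -0.71, -0.68 and -0.66 in phytogenic pools 1, 2 and 3, and -0.61, -0.39 and -0.76 in control pools 1, 2 and 3. On this scale control pool 2 was the highest and control pool 3 the lowest, and the median of the members still ranged over 0.374.

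**Figure D2:**
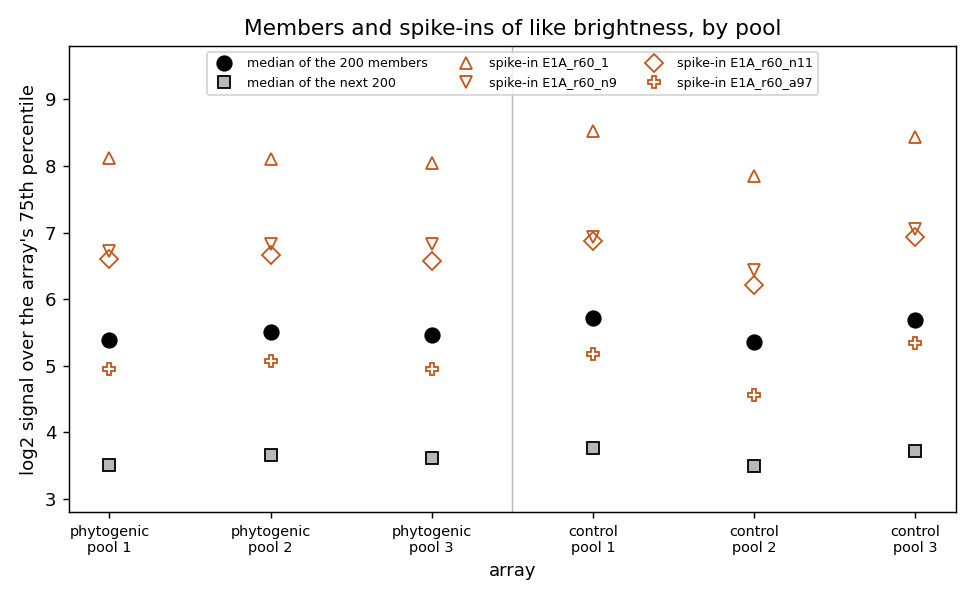
Median level of the 200 members, median level of the 200 next in brightness and level of the 4 brightest spike-ins (y axis, log2 signal over the 75th percentile of the array) in each phytogenic pool and each control pool (x axis). All of them are lowest in control pool 2 and high in control pools 1 and 3, and the phytogenic pools lie close together (members 5.38 to 5.50).

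Whether the phytogenic additive changed the brightest sequences was addressed by the comparison of the diets, which the choice of members did not use. No member passed the test. Diets were compared with limma over all 12657 sequences tested, of which 17 passed an adjusted p under 0.05 (0.134%), and 0 of the 200 members did (smallest adjusted p = 0.218, limma with Benjamini-Hochberg adjustment). At an unadjusted p under 0.05, limma gave 8 members (4%), fewer than the 11.1% of all sequences. The methods' t-test gave 6 (3%, against 11.5% of all sequences), of which 5 were lower and 1 was higher in the phytogenic pools. All 8 members from limma were lower in the phytogenic pools (1.21-fold to 1.96-fold), and in all 8 every probe had this sign. Among all sequences, 3.86% were lower and 7.24% were higher in limma. Sequences that passed the same filter as the members did not lean to higher values. Of the 4288 that could be chosen, 418 (9.75%) had such a p, 232 of them lower and 186 higher. Of the 200 next in brightness, 23 (11.5%) had one, 13 of them lower and 10 higher. At the level of probes, 27 of the 600 member probes (4.5%) had an unadjusted p under 0.05, against 10.9% of all probes, and 0 passed the adjustment.

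The pools of the phytogenic diet all lay below those of the control diet in 8 members, where 6.69% of all sequences did so. They all lay above in 1 member, Contig1517, where 11.6% of all sequences did so. Of the 4288 sequences that could be chosen, they all lay below in 418 and above in 389. Of the 200 next in brightness, they all lay below in 25 and above in 20. The 95% interval of the difference lay wholly within 2-fold in 191 of the 200 (95.5%), against 90.5% of the 200 next in brightness, 91.6% of the sequences that could be chosen and 76% of all sequences. It lay within 1.5-fold in 108 (54%), against 58%, 63.3% and 47.8% of the same sets. That interval reached 0.424 (1.34-fold) to either side of the difference, as the median over members. No member differed by more than 2-fold, against 0.723% of the sequences that could be chosen, and 3 (1.5%) differed by more than 1.5-fold, against 3.01%.

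The difference between the diets was below 0 in 162 members (81%) and above 0 in 38. Below 0 were also 63% of the 200 next in brightness, 52.3% of the sequences that could be chosen and 39.2% of all sequences. The median difference of the members was -0.10. It was -0.06 over the 200 next in brightness, -0.01 over the sequences that could be chosen and 0.06 over all sequences tested. The median of the members was 0.02 after quantile normalization, 0.10 in the unscaled deposited values and 0.00 without control pool 1, so its sign depends on the scaling and on that pool. Over all sequences tested the median was 0.02, 0.28 and 0.03 in the same settings. In the deposited values the members thus still lay below all sequences. Without control pool 2 the median of the members was -0.25. In that fit 68 members (34%) had an unadjusted p under 0.05, all of them lower, against 25% of all sequences (6.08% lower). Of the members, 0 passed the adjustment. Against control pool 3 alone, which shares its run of slide numbers with the phytogenic pools, the median was -0.18, and 178 members (89%) were below 0. Over all sequences tested the median was 0.07, and 40.2% were below 0. With that run as a block, the difference again rests on control pool 3 alone (median -0.18), as the other run holds no phytogenic pool. In that fit 2 members (1%) had an unadjusted p under 0.05, against 4.63% of all sequences, and 0 passed the adjustment. Scaled on the spike-ins, an alternative chosen after the data had been seen, the median was -0.06 and 2 members had an unadjusted p under 0.05, against 3.23% of all sequences. The brightest spike-in itself differed by -0.19 between the diets, and the 3 within the brightness of the members by -0.04.

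With this scaling, the difference ran with brightness. Its median was -0.06 for ranks 401 to 800, -0.03 for ranks 801 to 1600 and 0.02 for ranks 1601 to 4288, with 64.8%, 58.8% and 45.6% of these sequences below 0. Among the members, the medians were -0.14, -0.10, -0.08 and -0.06 from the brightest 50 to the last 50, with 46, 42, 37 and 37 of each 50 below 0. After quantile normalization the order was the opposite (median 0.02 for the members and -0.02 for ranks 1601 to 4288), and without control pool 1 the medians of all these sets lay between -0.01 and 0.003. The 8 members with an unadjusted p under 0.05 numbered 0, 3, 3 and 2 from the brightest 50 to the last 50, too few to set against this order.

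**Figure D3:**
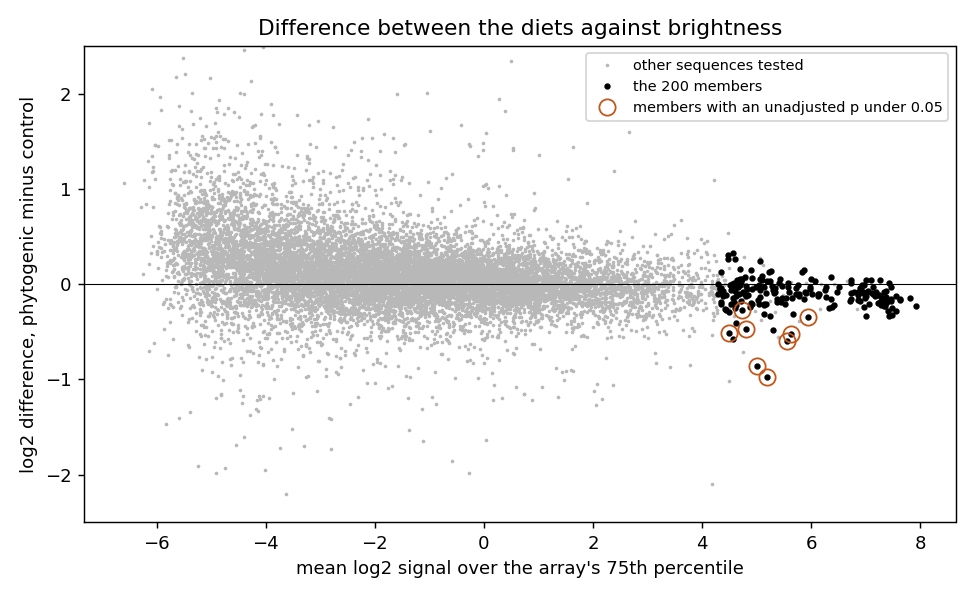
Log2 difference between the diets, phytogenic minus control (y axis), against the mean log2 signal over the 75th percentile (x axis) for the 12657 sequences tested, with the 200 members in black and the 8 members with an unadjusted p under 0.05 circled. Members lie on the right, mostly just below 0 (median -0.10), and 21 other sequences lie outside the y axis.

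The members with the smallest p in each direction show the size of these differences. The clone cDN03P0003H13.F.ab1 had 4.52, 4.64 and 4.54 in phytogenic pools 1, 2 and 3, against 5.05, 5.02 and 5.04 in control pools 1, 2 and 3. The diets did not overlap, and the medians of the control pools were almost the same. These medians fell on different probes, and each probe alone varied more (4.77, 5.02 and 4.97 in 1 of them). The difference of this clone was -0.47 (SE 0.0887), or 1.39-fold lower in the phytogenic pools, with an adjusted p of 0.218 (limma). Its 3 probes gave between -0.66 and -0.39. With the mean over probes in place of the median, the difference was -0.53 (SE 0.107). Contig1541 had 5.20, 5.21 and 5.34 in the phytogenic pools, against 5.65, 5.85 and 6.06 in the control pools, again without overlap. Its difference was -0.60 (SE 0.135), or 1.52-fold lower, with an adjusted p of 0.246 (limma), and its probes gave between -0.76 and -0.53.

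In the other direction no member reached an unadjusted p under 0.05 in limma, and those with its smallest p follow. In the methods' t-test 1 member did, Contig1517, which is described below among the nearly constant members. Seabream_2006-01-03-CL1703Contig1 had 4.97, 4.56 and 4.66 in the phytogenic pools, against 4.59, 4.27 and 4.34 in the control pools. Pool 1 was the highest of each diet, and the diets overlapped. Its difference was 0.33 (SE 0.154), with an adjusted p of 0.515 (limma). Contig1464 had 5.02, 5.24 and 5.28 in the phytogenic pools, against 4.72, 5.01 and 5.07 in the control pools, where pool 1 was the lowest of each diet. Its difference was 0.25 (SE 0.139), with an adjusted p of 0.589 (limma).

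Taken over both diets, pools of the same diet differed more in the members than in sequences of lower brightness that could be chosen. This held for the control pools and not for the phytogenic pools. The within-diet SD had a median of 0.222 over the members (0.0323 to 0.838), against 0.176 over the 200 next in brightness, 0.162 over all others that could be chosen and 0.207 over all sequences tested. Most of it came from the control pools. Among these the SD had a median of 0.28, against 0.202 over the 200 next in brightness, 0.166 over all others that could be chosen and 0.216 over all sequences tested. Among the phytogenic pools the SD had a median of 0.0966 in the members, against 0.12, 0.114 and 0.144 in the same sets. The control SD was the larger in 165 members (82.5%), against 65.8% of the others that could be chosen. Once each array was set to the median of the members, an alternative chosen after the data had been seen, the within-diet SD of the members had a median of 0.129. This centering used the members themselves, so a lower SD is partly built in, and 0.129 has no counterpart in the other sets.

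**Figure D4:**
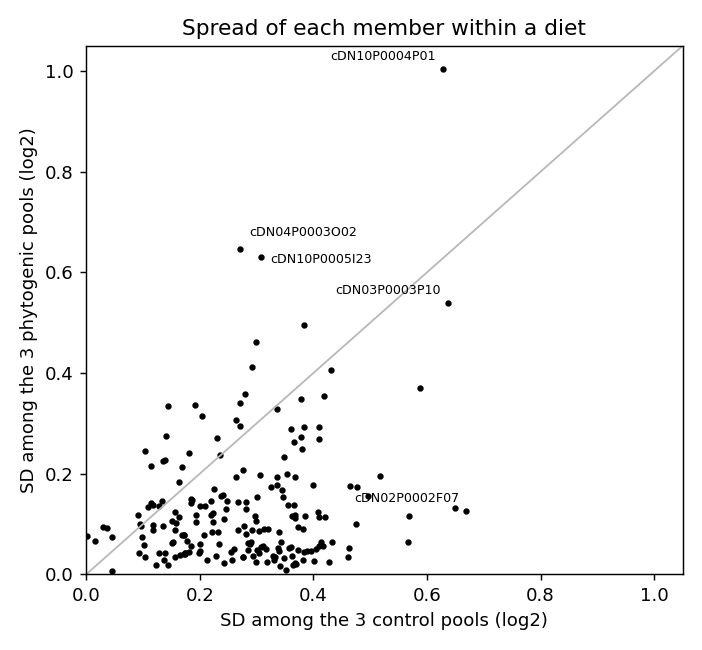
SD among the 3 phytogenic pools (y axis, log2) against the SD among the 3 control pools (x axis, log2) for each of the 200 members, with a line where both are equal and 5 variable clones named. Most points (165) lie below the line, and cDN10P0004P01 stands highest.

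A few members varied on their own. The range over the 6 arrays had a median of 0.594 and passed 1 in 13 members (6.5%), against 11% of the 200 next in brightness, 10.3% of the others that could be chosen and 26.8% of all sequences tested, and 6 of the 13 were clones. After each array was set to the median of the members, it passed 1 in 6, of which 4 were clones and 4 were lowest in phytogenic pool 1. The clone cDN10P0004P01.F.ab1 varied most, with 3.62, 5.55 and 5.09 in phytogenic pools 1, 2 and 3 and 5.37, 4.12 and 4.62 in control pools 1, 2 and 3, a range of 1.92 (3.8-fold). Phytogenic pool 1 was the lowest and phytogenic pool 2 the highest, so the whole range lay within 1 diet, and its 3 probes gave differences between the diets of -0.17 to 0.09. Over the 6 arrays, after centering on the members, its pattern was most like those of Contig2192 (r = 0.966), Seabream_2006-01-03-CL4560Contig1 (r = 0.966) and cDN03P0003P10.F.ab1 (r = 0.942), which are values over 6 arrays that share their pools.

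Other variable members shared this pattern in part or not. The clone cDN04P0003O02.F.ab1 (r = 0.782 with cDN10P0004P01.F.ab1) had 4.33, 5.55 and 5.31 in the phytogenic pools and 5.84, 5.30 and 5.49 in the control pools. Phytogenic pool 1 was the lowest. In control pool 2, 1 probe of this clone had no value, so 5.30 is the median of its other probes (5.75 and 4.86). Both of these probes were lower in control pool 2 than in every other pool except phytogenic pool 1. The clone cDN10P0005I23.F.ab1 had 4.12, 5.37 and 4.59 in the phytogenic pools and 5.32, 5.78 and 5.90 in the control pools. Phytogenic pool 2 was within the control pools, and the other 2 were below them, with a difference of -0.97 (SE 0.346) and an adjusted p of 0.394 (limma). Contig929 had 3.87, 4.52 and 4.50 in the phytogenic pools and 3.70, 4.70 and 4.73 in the control pools, where pool 1 was the lowest of both diets. After centering on the members it correlated with the clone cDN02P0002F07.F.ab1 with r = 0.909, and both were lowest in control pool 1.

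At the other end, some members were nearly constant. Contig1517 had the smallest within-diet SD (0.0323), with 5.14, 5.13 and 5.14 in the phytogenic pools and 5.10, 5.03 and 5.01 in the control pools, and its difference of 0.09 (SE 0.0855) had an adjusted p of 0.754 (limma). It had an unadjusted p under 0.05 in the methods' t-test, and the diets did not overlap, though its 3 probes gave differences of both signs (-0.18 to 0.13). Contig1418 had 5.70, 5.62 and 5.77 in the phytogenic pools and 5.73, 5.73 and 5.73 in the control pools, and its difference was -0.04 (SE 0.0905). Its probes ran from 5.62 to 5.75, from 5.73 to 5.74 and from 5.69 to 5.73 in the control pools, so the medians varied less than some probes.

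**Figure D5:**
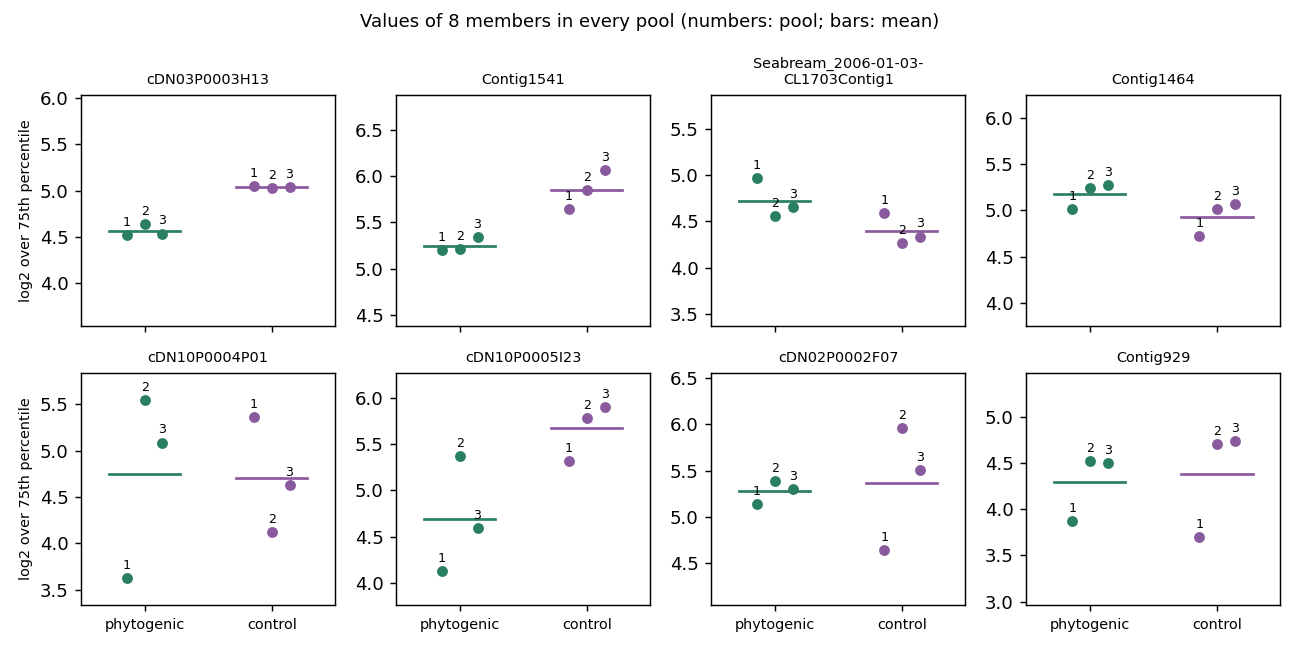
Values of 8 members (y axis, log2 signal over the 75th percentile, all panels 2.5 units high) in the 3 phytogenic pools and the 3 control pools (x axis), with pool numbers at the points and a bar at the mean of each diet. In cDN03P0003H13 and Contig1541 the diets do not overlap, and in the lower row the pools of 1 diet spread over up to 1.92 units.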

How the data were processed

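Skin RNA of 3 phytogenic and 3 control pools was hybridized to 1 array each. Per the file headers, spots were quantified with Feature Extraction 10.7.3.1 (the methods name another version), and the authors deposited intensity values, background-subtracted and detrended within arrays and not scaled between them. A series table that the authors deposited holds log2 values equal to log2 of the background-subtracted signal, and it was used as an alternative. The deposited flags (other spot columns) marked control, outlier, background and low-gain spots. Control spots and outlier-flagged spots were left out of the tested values, while the rule for the members kept outlier-flagged spots. Values were scaled by the 75th percentile (the normalization of the methods). Probes entered the test where, in 1 diet or both, every array had 50% or more of the spots of the probe well above background, and where each diet had 2 arrays or more with a value. A sequence took the median over its tested probes. Diets were compared with limma 3.58.1 (lmFit, eBayes, two-sided, Benjamini-Hochberg adjustment over all sequences tested) in R 4.3.3 with the package data.table (1.17.8), after tests on simulated data, and figures were drawn with matplotlib 3.10.9. The unpaired test of the methods is called the methods' t-test.

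The members, lists and tests were chosen with earlier results of these data known. Named sequences are taken from a rule: the highest means, the edges of the threshold, the smallest p in each direction, the largest and smallest within-diet SD, and the largest disagreement between probes. Few are printed, as the names match no gene. The members cDN02P0002F07.F.ab1 and Seabream_2006-01-03-CL4560Contig1 were chosen after their values were seen. Lists of marker genes of skin cell types were not run for the same reason. Alternatives covered background correction, scaling, flags, probe summary, filters, blocks and each pool left out. The labels do not say whether pools of the same number belong together, so the main fit used no block.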

Additional observations from a re-analysis of the deposited data

How the results depend on the processing

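The count of members past the threshold was 0 under every alternative run. The count over all sequences, 17, was 26 with normexp background (offset 50), 27 with trended and robust limma, 3 in the unscaled deposited values, 2 when only sequences with 2 or more probes, all well above background, were tested, 0 with a block for the slide runs and 8 when scaled on the spike-ins, the last chosen after the data had been seen. It lay between 0 and 16 when 1 pool was left out. Pools with the same number did not deviate together (r = -0.131, -0.252 and -0.006 over all sequences for pools 1, 2 and 3), and with the replicate block 0 sequences and 0 members passed. The median difference of the members (-0.10) was 0.0976 in the deposited values, where the median over all sequences was 0.278. When 1 pool was left out, the median of the members lay between -0.247 and 0.003. Of the 8 members with an unadjusted p under 0.05, 7 had one with normexp background, 0 in the deposited values, 5 after quantile normalization, 2 with a block for the slide runs and between 2 and 7 when 1 pool was left out. Among all sequences with an unadjusted p under 0.05, 65.2% were higher in the phytogenic pools, against 43.5% with normexp background, 50.3% when centered on the median of the sequences tested, 75.3% on the spike-ins, 88.6% when centered on the members and 92.8% in the deposited values. In these alternatives the cause of the change was not tested. The precision is limited by the 3 arrays of each diet, and by the rule every probe of the members was well above background on all 6 arrays.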
